A study of Mus musculus with 6 samples.

Results

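The genes described here encode subunits of the ATP-dependent chromatin remodelers, chosen by gene symbol from the families SWI/SNF, ISWI, CHD and INO80. The symbol rule matched 48 of the 17512 genes in the table, and 47 of them had enough counts to be tested among 14773 genes. It took 19 SWI/SNF genes, 2 ISWI genes, 9 CHD genes and 9 genes of the INO80, SRCAP and TIP60 complexes. It also caught Smarcad1 and Smarcal1, which are related ATPases outside these families, the pseudogene Smarca5-ps, and 6 genes that only share the ARID name (Arid3a, Arid3b, Arid4a, Arid4b, Arid5a and Arid5b). The last 6 encode DNA-binding or co-repressor proteins rather than remodeler subunits and are kept apart below. Dpf3, a subunit of SWI/SNF in muscle and neurons, was the member left untested, with 0 to 6 counts per library.

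RNA-Seq was performed on 6 lines of pMEFs, which are primary fibroblasts of the mouse cultured from mid-gestation embryos after the internal organs were taken out. The strain background was C57bl6 in all lines, which were grown in serum without treatment. Lines 36, 47 and 78 carried the HAT1 WT genotype and lines 33, 41 and 72 the HAT1 KO genotype, a knockout of the histone acetyltransferase that acetylates new histone H4. Each line was counted as 1 replicate. Whether lines came from the same litter is not given in the sources used here.

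Chromatin remodelers use ATP to slide, evict or exchange nucleosomes, and each family is built around its own kind of motor subunit. SWI/SNF complexes open promoters and enhancers, ISWI and CHD enzymes space nucleosomes or, as part of NuRD, close chromatin, and INO80 and SRCAP exchange histone variants. Some close paralogues, such as Smarca4 and Smarca2, are used in alternative versions of the same complex, so their balance can differ between cell types.

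Hat1 itself was at 17.4, 23.0 and 20.1 CPM (read counts scaled to a common library size, with TMM factors) in HAT1 WT and at 10.2, 10.0 and 10.3 CPM in HAT1 KO. The edgeR test gave it an adjusted p-value of 0.0376, and Hat1 reads remained in each KO library. Libraries held 67720628 to 98786746 counts. All 10 fibroblast markers were expressed in all lines, with a summed level of 71176 to 76577 CPM in WT and 57738 to 89814 CPM in KO. Of 5 endothelial markers in the table, Pecam1, Cdh5 and Emcn were under 1 CPM in every line, Tek reached 1.66 CPM and Kdr was at 6.58 to 10.2 CPM. Of 6 epithelial markers, Epcam, Krt5, Krt8 and Krt14 were under 1 CPM in every line, while Krt18 and Cdh1 reached 1.33 and 2.05 CPM. Markers of macrophages were lower in KO for 10 of 10 genes, with sums of 4517 to 4890 CPM in WT against 2185 to 2668 CPM in KO. Markers of proliferation were higher in KO for 12 of 12 genes, with sums of 528 to 789 CPM in WT against 825 to 1086 CPM in KO. Y-linked genes summed to 183 and 159 CPM in WT lines 36 and 47, 2.33 CPM in WT line 78 and 0.0519 to 0.118 CPM in the KO lines. Xist was at 1.25, 14.6 and 298 CPM in WT lines 36, 47 and 78 and at 146 to 191 CPM in the KO lines. Sex-linked expression was thus unbalanced between the genotypes. KO line 72 stood apart, with 13.3% of all tested genes more than 2-fold from the median of the other lines. In bulk RNA, fewer cells of a type and less RNA per cell cannot be told apart.

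The remodeler genes showed small differences between HAT1 KO and HAT1 WT. By edgeR, none of the 47 tested members reached an adjusted p-value under 0.05, while 0.528% of all tested genes did, and the smallest adjusted p-value among the members was 0.194, for Chd7. The DESeq2 Wald test called 1 member, Chd7, beside 6.14% of all genes with an adjusted p-value in that test, and voom called 0, beside 1.81% of all genes. At an unadjusted p-value under 0.05, 8 members were lower in KO (17.0%, against 8.77% of all tested genes) and 3 were higher (6.38%, against 5.88%). The lower members were Chd7, Chd6, Chd2, Arid1b and 4 of the ARID genes outside SWI/SNF. The higher members were Ruvbl1, Ruvbl2 and Smarcb1. Among the 38 tested genes of the 4 remodeler families, without the other ARID genes, Smarcad1, Smarcal1 and the pseudogene, 4 were lower (10.5%) and 3 higher (7.89%) at that level. Lines of the genotypes did not overlap for 9 members that were lower (19.1%, against 12.4% of all tested genes) and 4 that were higher (8.51%, against 9.59%). The count of 8 lower members depended on each line, since it was 1 without WT line 78, 3 without KO line 33 or KO line 41, 4 without WT line 47 and 5 without WT line 36 or KO line 72. The count of 3 higher members was 1 without WT line 78, WT line 36 or KO line 33. Of all tested genes, 3.11%, 3.02% and 4.30% were higher with these lines left out in turn. With lane in the model 3 members were lower and 1 higher, beside 4.91% and 1.39% of all tested genes. Without WT line 78, the Y-linked expression given above also followed genotype.

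The size of the differences was limited as well. The members had a median log2 fold change of -0.05, beside 0.0085 over all tested genes. Of the 47, 29 were lower (61.7%, against 48.5% of all tested genes). Chd5 was the member that differed by 1.5-fold or more in its fitted value, and that value rested on KO line 72 (below). For 38 of the 47 members the 95% interval of the fold change lay within 1.5-fold in either direction (80.9%, against 52.9% of all tested genes). The members were more abundant and varied less than most genes, with a median WT level of 50.8 CPM against 17.4 CPM for all tested genes and a median SD within genotypes of 0.110 against 0.179 on the log2 CPM scale.

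**Figure D1:**
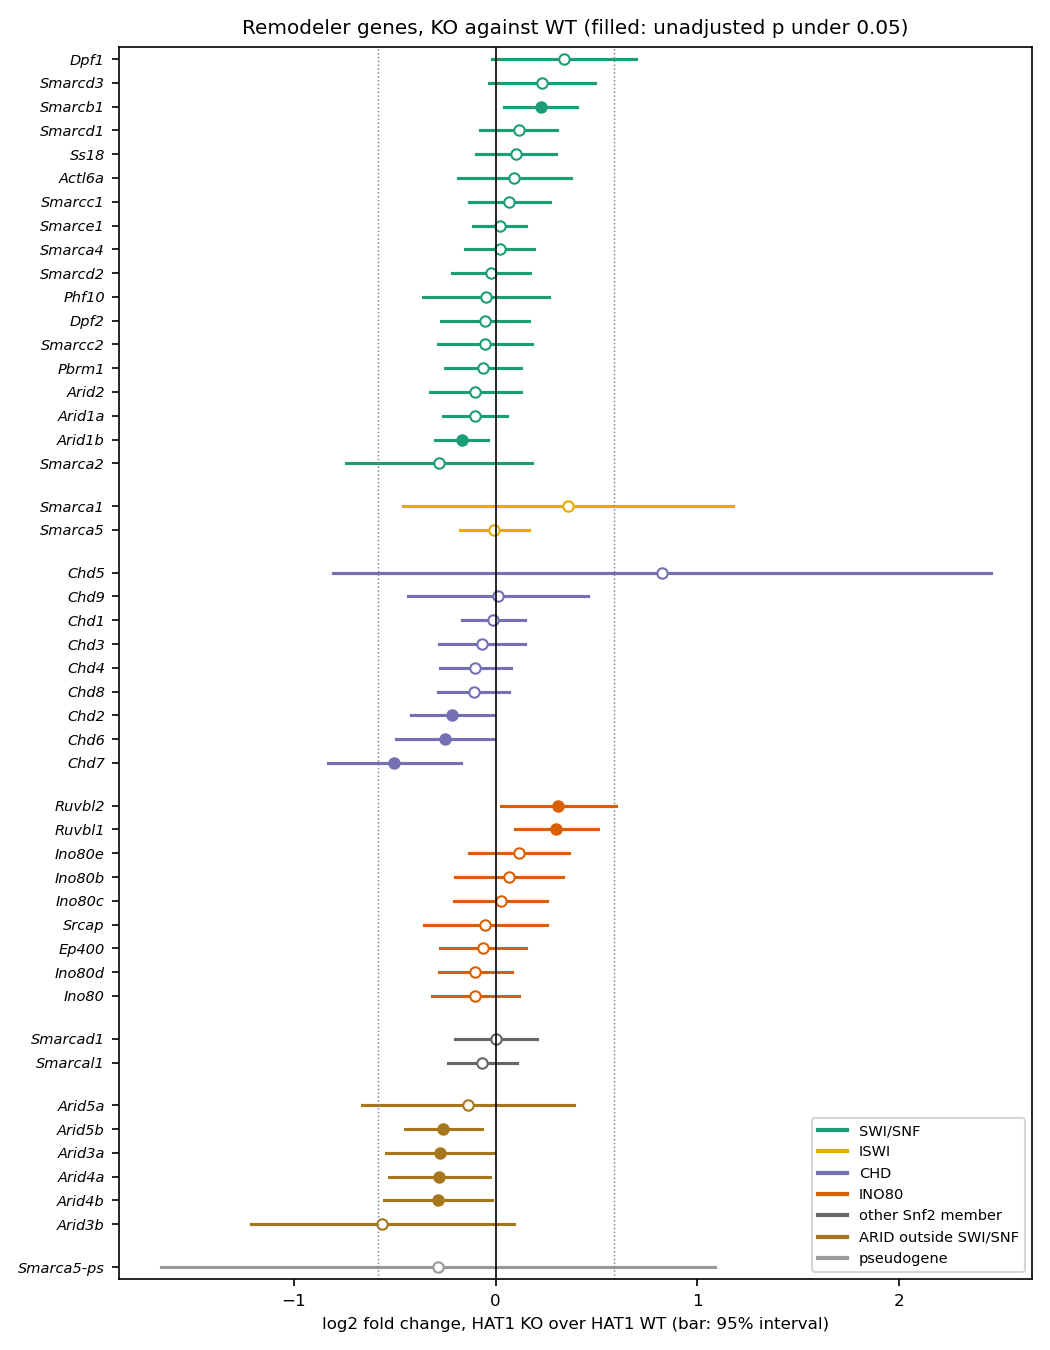
Log2 fold change of HAT1 KO over HAT1 WT for the 47 tested members, grouped by family, with 95% intervals from edgeR as bars and dotted lines at 1.5-fold. The 11 filled points have an unadjusted p-value under 0.05, and the intervals of the other 36 members contain 0.

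The promoters of the higher members Ruvbl1 and Smarcb1 and of the lower member Chd6 are shown as remodeler subunits with an unadjusted p-value under 0.05 whose upstream windows are free of annotated exons over at least 200 bases. The sequences are from RefSeq on GRCm38.p6, run 5′ to 3′ on the strand of the gene and end at or just before the transcription start. Capitals mark a CCAAT box (CCAAT) or a GC box (GGGCGG), each read on both strands. The window of Ruvbl1 is chr6:88465159-88465408 (plus strand), that of Smarcb1 is chr10:75921618-75921864 (minus strand) and that of Chd6 is chr2:161109087-161109336 (minus strand).
Ruvbl1: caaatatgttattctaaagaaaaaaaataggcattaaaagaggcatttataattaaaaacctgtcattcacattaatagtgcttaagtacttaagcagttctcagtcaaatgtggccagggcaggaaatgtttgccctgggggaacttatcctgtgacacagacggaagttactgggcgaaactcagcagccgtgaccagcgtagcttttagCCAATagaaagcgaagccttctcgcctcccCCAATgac
Smarcb1: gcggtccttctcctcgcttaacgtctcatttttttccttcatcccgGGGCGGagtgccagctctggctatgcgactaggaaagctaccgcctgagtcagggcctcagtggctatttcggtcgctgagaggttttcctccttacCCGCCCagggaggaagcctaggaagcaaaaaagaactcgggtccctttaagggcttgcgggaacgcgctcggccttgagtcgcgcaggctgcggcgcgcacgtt
Chd6: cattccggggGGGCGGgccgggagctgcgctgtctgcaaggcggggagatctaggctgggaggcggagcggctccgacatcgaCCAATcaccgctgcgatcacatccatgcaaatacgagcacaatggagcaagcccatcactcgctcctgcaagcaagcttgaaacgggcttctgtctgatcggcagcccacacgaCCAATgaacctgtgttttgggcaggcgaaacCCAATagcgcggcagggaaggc

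The Ruvbl1 window held 2 CCAAT boxes and no GC box, the Smarcb1 window 2 GC boxes and no CCAAT box, and the Chd6 window 3 CCAAT boxes and 1 GC box. The window of Arid5b, which is no remodeler subunit and is not printed, held neither. RefSeq windows were matched for 36 of the 48 members. A member or tested gene was counted as holding a motif if any of its windows did. The share over all windows counts each window alone, so it is not a like measure. Within 250 bases upstream, a GC box was present in 29 of these 36 (80.6%), against 61.8% of 11483 matched tested genes and 32.7% of all 32851 windows. A CCAAT box was present in 15 of the 36 (41.7%), against 39.9% of tested genes and 33.8% of all windows. The E-box CACGTG was present in 2 of the 36 (5.56%), against 9.67% of tested genes and 6.02% of all windows. The median GC content, taken from the first window of each gene, was 62.6% for the members (42.0 to 88.4%), against 59.6% for tested genes. A GC box was thus present upstream of most matched members, although not in the printed Ruvbl1 window. The letters alone do not show binding by any factor.

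Among the motors of all families, levels were compared per kilobase of exon, since these genes differ in length. Chd4 and Chd3, the NuRD motors, led in WT with 66.4 ± 3.16 and 49.5 ± 4.68 CPM per kb (SD, n = 3). Smarca4, the main SWI/SNF motor of dividing cells, followed with 32.9 ± 1.81 CPM per kb, then Smarca5, the ISWI motor, with 25.9 ± 1.08 and Chd8, which binds CTCF and beta-catenin, with 15.1 ± 1.16 CPM per kb. Each of these 5 motors lay above the next in every WT line. Ep400, Smarca2, Chd1, Chd9 and Smarcad1 came next, from 13.2 down to 8.66 CPM per kb, and each overlapped its neighbour in this order. Smarcal1, Ino80, Chd2 and Chd6 lay between 7.32 and 6.24 CPM per kb and also overlapped each other in that order. Smarca1 and Chd7 overlapped at 1.63 and 1.37 CPM per kb. Srcap had 0.719 CPM per kb, although 65.0% of its exon bases are shared with other gene models, and Chd5 was the lowest with 0.259 CPM per kb.

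**Figure D2:**
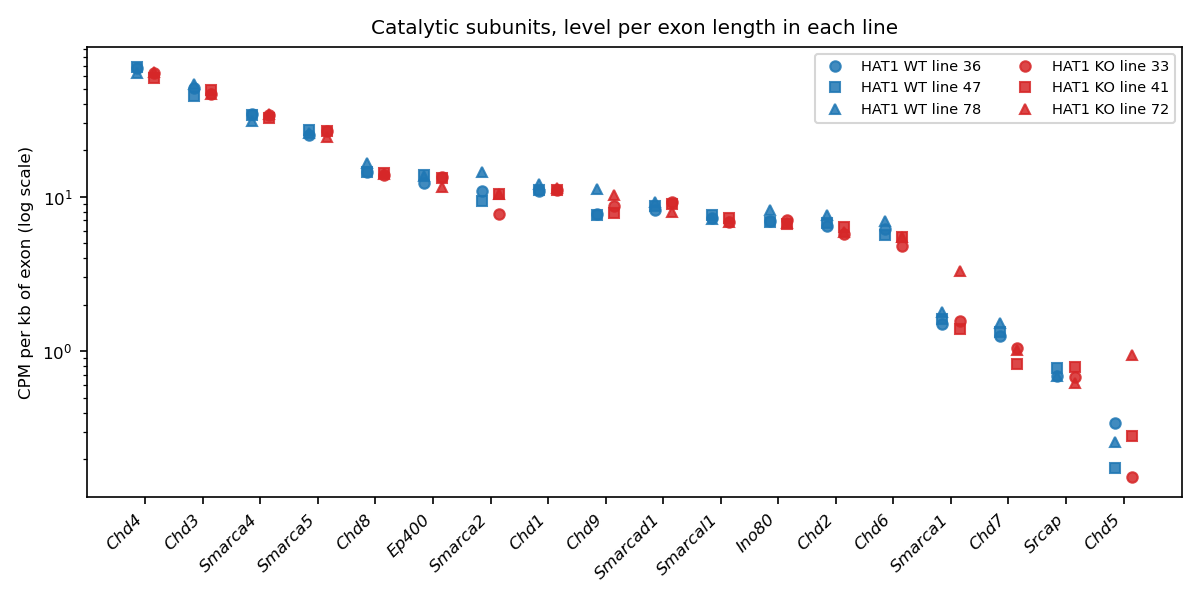
Level of 18 catalytic subunits in each of the 6 lines, in CPM per kb of merged exon on a log axis, ordered by the HAT1 WT mean (blue WT, red KO). The genotypes lie close together from Chd4 to Smarcal1, all KO points of Chd7 lie below its WT points, and KO line 72 stands above the rest for Smarca1 and Chd5.

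Smarca4 (BRG1), the SWI/SNF motor, was at 217, 216 and 197 CPM in WT lines 36, 47 and 78 and at 215, 204 and 220 CPM in KO lines 33, 41 and 72. Its log2 fold change was 0.02, with a 95% interval of -0.15 to 0.19. The genotypes overlapped, with KO line 72 the highest and WT line 78 the lowest. Smarca2 (BRM), the alternative motor of quiescent and differentiated cells, was at 79.3, 68.3 and 105 CPM in WT and at 56.5, 75.5 and 76.2 CPM in KO. Its log2 fold change of -0.28 had an interval of -0.74 to 0.18, and without WT line 78 it was -0.08. The lines of each genotype spread more for Smarca2 than for Smarca4, so that its difference could not be resolved.

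Arid1b, the DNA-binding subunit of canonical SWI/SNF that alternates with Arid1a, lies on chromosome 17 (4994332 to 5347656, mm10). It was at 111, 112 and 114 CPM in WT and at 102, 97.3 and 100 CPM in KO. Each KO line was lower than each WT line, at 88.9% of the WT mean, which was the tightest of the differences. This was a log2 fold change of -0.17 (SE 0.0541), an unadjusted p-value of 0.0193 and an adjusted p-value of 0.247 in edgeR. With the trend on exon length removed it was -0.07 with an unadjusted p-value of 0.299 in edgeR. Arid1a was at 206, 208 and 199 CPM in WT and at 200, 191 and 180 CPM in KO and overlapped, with a log2 fold change of -0.10 and an interval of -0.26 to 0.06. Arid2 and Pbrm1, which define the PBAF form of the complex, had log2 fold changes of -0.10 and -0.06, with intervals that contain 0.

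Smarcb1 (SNF5), a core subunit that clamps the complex to the nucleosome and is lost in rhabdoid tumours, lies on chromosome 10 (75896769 to 75921617, mm10). It was at 60.1, 62.8 and 59.5 CPM in WT and at 76.8, 70.5 and 65.7 CPM in KO. Every KO line lay above every WT line, and the KO mean was 117% of the WT mean. This was a log2 fold change of 0.22 (SE 0.0746), an unadjusted p-value of 0.0227 and an adjusted p-value of 0.263 in edgeR. Within lane 6 the values were 62.8 CPM in WT line 47 against 76.8 and 65.7 CPM in KO lines 33 and 72, and within lane 7 they were 59.5 CPM in WT line 78 against 70.5 CPM in KO line 41. With lane in the model the unadjusted p-value was 0.120 in edgeR, and 9 of the 14 alternatives kept it under 0.05.

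The other core and accessory SWI/SNF subunits stayed near their WT levels. The scaffold Smarcc1 was at 179 to 204 CPM in WT and 186 to 211 CPM in KO, and its partner Smarcc2 at 135 to 153 CPM in WT and 127 to 155 CPM in KO. Smarce1, a DNA-binding core subunit, was at 53.9 to 56.8 CPM in WT and 55.5 to 57.5 CPM in KO. The actin-like subunit Actl6a, the PHD finger subunit Phf10 and the fusion partner Ss18 had log2 fold changes of 0.09, -0.05 and 0.10. Of the 18 tested SWI/SNF genes 9 were lower and 9 higher, and for 16 the interval lay within 1.5-fold.

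Dpf1 and Smarcd3 did not overlap between the genotypes, although neither had an unadjusted p-value under 0.05. Dpf1, a histone-reading subunit used in neurons, was at 3.24, 3.801 and 3.17 CPM in WT and at 4.402, 4.47 and 4.04 CPM in KO, with a log2 fold change of 0.34 and an unadjusted p-value of 0.0601 in edgeR. Its widely used paralogue Dpf2 was at 49.9, 50.8 and 51.8 CPM in WT and at 53.8, 50.05 and 43.4 CPM in KO. Smarcd3, the subunit of heart and muscle complexes, was at 11.0, 10.1 and 10.6 CPM in WT and at 12.3, 11.2 and 13.7 CPM in KO, with a log2 fold change of 0.23 and an unadjusted p-value of 0.0743 in edgeR. For Smarcd3, 48.2% of the exon bases are shared with other gene models, chiefly Chpf2, so its counts are uncertain. Smarcd1 was at 21.4 to 24.5 CPM in WT and 24.4 to 25.4 CPM in KO, and Smarcd2 at 57.1 to 58.3 CPM in WT and 52.4 to 62.8 CPM in KO.

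The ISWI motor Smarca5 (SNF2H), which spaces nucleosomes after replication, was at 153, 166 and 157 CPM in WT and at 162, 164 and 147 CPM in KO. Its log2 fold change was -0.01 with an interval of -0.18 to 0.16. Smarca1 (SNF2L), its X-linked paralogue of neurons, was at 8.80, 9.48 and 10.6 CPM in WT and at 9.29, 8.20 and 19.5 CPM in KO. Only KO line 72 was high, at 2.11 times the median of the other lines, and the log2 fold change of 0.36 (unadjusted p-value 0.329 in edgeR) turned to -0.13 without that line.

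Of the 9 CHD genes 7 were lower (77.8%, against 48.5% of all tested genes) and 3 were lower at an unadjusted p-value under 0.05 (33.3%, against 8.77%). They are long genes, with a median of 9085 exon bases, and 63.2% of the 1341 tested genes with over 7391 exon bases were lower. Chd7, the motor that is mutated in CHARGE syndrome and acts at enhancers, lies on chromosome 4 (8690406 to 8867659, mm10). It was at 12.9, 13.8 and 15.8 CPM in WT and at 10.9, 8.49 and 10.6 CPM in KO, from 574 to 1560 counts per library. Each KO line was lower than each WT line, and the KO mean of 9.99 ± 1.30 CPM was 70.5% of the WT mean of 14.2 ± 1.46 CPM (SD, n = 3 each). This was a log2 fold change of -0.50 (SE 0.136), an interval of -0.83 to -0.17, an unadjusted p-value of 0.00931 and an adjusted p-value of 0.194 in edgeR. The DESeq2 Wald test gave the same gene an adjusted p-value of 0.0409, and the 14 alternatives gave it adjusted p-values of 0.0409 to 0.731. Within lane 6 the values were 13.8 CPM in WT line 47 against 10.9 and 10.6 CPM in KO lines 33 and 72, and within lane 7 they were 15.8 CPM in WT line 78 against 8.49 CPM in KO line 41. WT line 78 had the highest Chd7 level of the 6 lines. Sex-linked expression was unbalanced between the genotypes, and its part in the Chd7 values was not tested. With the trend on exon length removed, the log2 fold change was -0.41 with an unadjusted p-value of 0.0223 in edgeR.

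Chd6, a DNA-damage-responsive motor of the same subfamily, lies on chromosome 2 (160946978 to 161109075, mm10). It was at 64.9, 59.4 and 72.6 CPM in WT and at 49.99, 57.7 and 57.8 CPM in KO. The lines did not overlap, although WT line 47 and KO line 72 were 59.4 and 57.8 CPM. This was a log2 fold change of -0.25, an unadjusted p-value of 0.0449 in edgeR. Chd2, an enzyme that deposits histone H3.3 and is mutated in childhood epilepsy, lies on chromosome 7 (73426638 to 73541830, mm10) and was at 58.4, 61.4 and 69.1 CPM in WT and at 51.8, 57.6 and 53.6 CPM in KO. Its lines did not overlap either, with a log2 fold change of -0.21 and an unadjusted p-value of 0.0430 in edgeR, and 19.3% of its exon bases are shared with other gene models. Without the trend on exon length Chd6 was at -0.16 and Chd2 at -0.13 (log2), with unadjusted p-values of 0.0851 and 0.0957 in edgeR, and without WT line 78 these p-values were 0.127 and 0.133.

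The remaining CHD motors overlapped between the genotypes, apart from Chd8. Chd8 was at 123, 123 and 140 CPM in WT and at 118, 120 and 119 CPM in KO, so that its lines did not overlap, with a log2 fold change of -0.11 and an interval of -0.28 to 0.07. Chd1, which travels with elongating RNA polymerase, was at 90.9, 92.5 and 101 CPM in WT and at 93.3, 93.3 and 95.8 CPM in KO, with a log2 fold change of -0.01. The NuRD motor Chd4 was at 457, 460 and 422 CPM in WT and at 422, 396 and 430 CPM in KO, with a log2 fold change of -0.10 and an interval of -0.28 to 0.08. These differences were within the spread of the lines or close to it. Chd3, the other abundant NuRD motor, was at 365, 323 and 390 CPM in WT and at 336, 356 and 336 CPM in KO, with a log2 fold change of -0.07. Chd9, a motor linked to bone-forming cells, was at 92.5, 91.6 and 136 CPM in WT and at 105, 93.8 and 123 CPM in KO, with a log2 fold change of 0.01. WT line 78 and KO line 72 were the high lines for Chd9, so its spread did not follow genotype.

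Chd5, a neuronal motor and tumour suppressor, was at 3.25, 1.66 and 2.46 CPM in WT and at 1.46, 2.66 and 8.92 CPM in KO. KO line 72 alone was high, at 3.63 times the median of the other lines. Its log2 fold change of 0.82 had an interval of -0.81 to 2.45 and an unadjusted p-value of 0.266 in edgeR, and was -0.24 without KO line 72. In that line the neuronal transcripts Map2 and Stmn2 were at 153 and 19.3 CPM, against at most 52.02 and 6.497 CPM elsewhere, and the summed neural markers were at 234 CPM against 66.0 to 123 CPM in the other lines. Tubb3, the other expressed neural marker, was not highest there, at 60.6 CPM against 67.96 CPM in KO line 33. Syp and Elavl4 were under 1 CPM in all lines, and Elavl4 was lowest in KO line 72, at 0.104 CPM. The part of neural cells or transcripts in the levels of Chd5 and Smarca1 was not tested.

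In the INO80 group the shared AAA+ ATPases were higher in KO while the large motors were not. Ruvbl1 (Pontin), an assembly factor found in the INO80, SRCAP and TIP60 complexes, lies on chromosome 6 (88465409 to 88497572, mm10). It was at 27.3, 27.3 and 23.6 CPM in WT and at 32.5, 32.99 and 30.8 CPM in KO, from 2062 to 2898 counts per library. All KO lines lay above all WT lines, with means of 32.1 ± 1.16 CPM in KO and 26.1 ± 2.14 CPM in WT (SD, n = 3 each). This was a log2 fold change of 0.30 (SE 0.0848), an interval of 0.10 to 0.51, an unadjusted p-value of 0.0112 and an adjusted p-value of 0.206 by edgeR. For this gene the 14 alternatives gave adjusted p-values of 0.0542 to 0.772. Within lane 6 the values were 27.3 CPM in WT line 47 against 32.5 and 30.8 CPM in KO lines 33 and 72, and within lane 7 they were 23.6 CPM in WT line 78 against 32.99 CPM in KO line 41. Ruvbl1 and Chd7 were the members that kept an unadjusted p-value under 0.05 in each of the 14 alternatives.

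Ruvbl2 (Reptin), which forms a hetero-hexamer with Ruvbl1, lies on chromosome 7 (45421760 to 45438096, mm10) and was at 35.98, 39.1 and 32.9 CPM in WT and at 50.7, 44.4 and 38.9 CPM in KO. KO line 33 was the highest, and KO line 72 lay just under WT line 47. Its log2 fold change was 0.31 (SE 0.118), with an unadjusted p-value of 0.0366 and an adjusted p-value of 0.308 in edgeR. Of its exon bases, 15.4% are shared with Gys1 and Lhb. Both partners differed by a like amount, and Ruvbl1 made up 52.7% of their summed level per kb in each genotype. The proliferation markers above were higher in the same KO lines, and their part in the Ruvbl1, Ruvbl2 and Smarcb1 values was not tested.

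The motors of the INO80 group were near their WT levels. Ino80 was at 45.6, 44.9 and 54.2 CPM in WT and at 46.4, 44.1 and 44.3 CPM in KO, with a log2 fold change of -0.10 and an interval of -0.32 to 0.12. Ep400, the motor of the TIP60 complex, was at 156, 174 and 172 CPM in WT and at 170, 167 and 145 CPM in KO, with a log2 fold change of -0.06. Srcap, which loads the histone variant H2A.Z, was at 9.11, 10.3 and 9.18 CPM in WT and at 9.01, 10.4 and 8.18 CPM in KO, with a log2 fold change of -0.05. None of these motors separated the genotypes. The INO80-specific subunits Ino80b, Ino80c, Ino80d and Ino80e had log2 fold changes of 0.07, 0.03, -0.10 and 0.12, with intervals that contain 0.

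**Figure D3:**
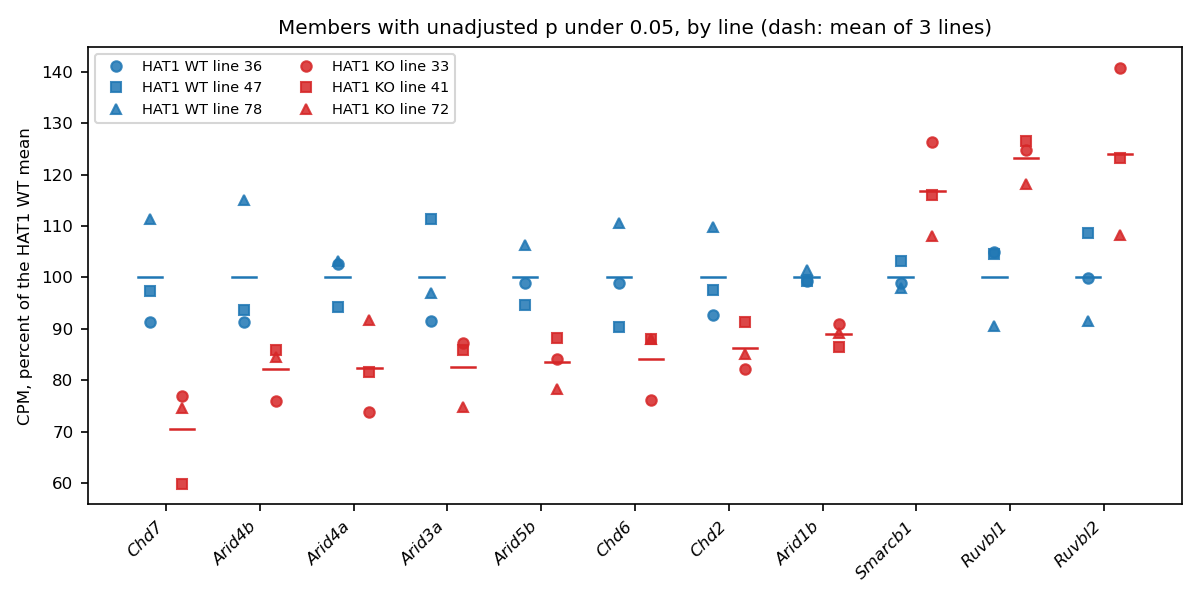
CPM in each line as a percentage of the HAT1 WT mean for the 11 members with an unadjusted p-value under 0.05, with dashes at the mean of 3 lines (blue WT, red KO). Chd7 has the lowest KO mean at 70.5%, Ruvbl2 the highest at 124%, and Ruvbl2 is the gene whose lines overlap.

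Outside the remodeler families, Smarcad1, a motor that helps keep heterochromatin through replication, was at 45.3, 47.8 and 50.7 CPM in WT and at 50.9, 49.5 and 43.7 CPM in KO. Smarcal1, an annealing helicase at stalled forks, was at 22.7 to 24.0 CPM in WT and 21.8 to 23.2 CPM in KO. The 6 ARID genes that are not remodeler subunits were all lower in KO, against 48.5% of all tested genes, with a median log2 fold change of -0.28. Arid5b, a co-factor of a histone demethylase in mesenchymal cells and the most abundant of them, was at 248, 237 and 266 CPM in WT and at 210, 221 and 196 CPM in KO, with a log2 fold change of -0.26 and an unadjusted p-value of 0.0151 in edgeR. Arid4a and Arid4b, which belong to a histone deacetylase complex, had log2 fold changes of -0.28 each and unadjusted p-values of 0.0339 and 0.0404 in edgeR. Arid4a was at 24.8, 22.8 and 25.0 CPM in WT and at 17.8, 19.7 and 22.2 CPM in KO. Arid4b was at 35.9, 36.8 and 45.2 CPM in WT and at 29.9, 33.8 and 33.2 CPM in KO. Arid3a, a B-cell and stem-cell factor, was at 18.4, 22.3 and 19.4 CPM in WT and at 17.5, 17.2 and 14.998 CPM in KO, with a log2 fold change of -0.27 and an unadjusted p-value of 0.0465 in edgeR. The lines of these 4 genes did not overlap (66.7% of the 6, against 12.4% of all tested genes), and none passed adjustment over all genes. Arid3b overlapped at 2.07 to 3.27 CPM in WT and 1.36 to 2.15 CPM in KO, with a log2 fold change of -0.56 and an unadjusted p-value of 0.0807 in edgeR. Arid5a overlapped at 11.9 to 16.5 CPM in WT and 10.0 to 15.9 CPM in KO. The macrophage markers above were lower in the same KO lines, and their part in the lower members was not tested. The pseudogene Smarca5-ps was under 1 CPM in every line.

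The balance between paralogues was compared as the share of each gene in the summed CPM per kb of its set, for 14 shares in 12 sets. Not all sets are alternatives in the same complex. Ruvbl1 and Ruvbl2 form a joint hetero-hexamer, and Ep400 and Srcap are motors of different complexes. With 3 lines against 3 the exact permutation test cannot give a p-value under 0.1. The lines did not overlap for 3 shares, each with an exact p-value of 0.1 and an adjusted p-value of 0.467. Chd1 made up 62.7, 61.9 and 61.3% of Chd1 plus Chd2 in WT and 66.1, 63.6 and 65.9% in KO. Dpf2 made up 92.0, 91.0 and 92.5% of the Dpf genes in WT and 90.2, 89.4 and 89.0% in KO. Smarcd3 made up 17.6, 16.7 and 17.5% of the Smarcd genes in WT and 18.3, 18.3 and 22.2% in KO. These shifts were of at most 3.22 percentage points in the means. The ratio of the SWI/SNF motors overlapped, with Smarca4 at 74.1 ± 5.30% of Smarca4 plus Smarca2 in WT and 77.9 ± 3.02% in KO (SD, n = 3 each). The share of Ep400 in Ep400 plus Srcap was 94.8% in both genotypes. Of the exon bases of Srcap and Smarcd3, 65.0% and 48.2% are shared with other gene models, so the shares with these genes are uncertain.

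**Figure D4:**
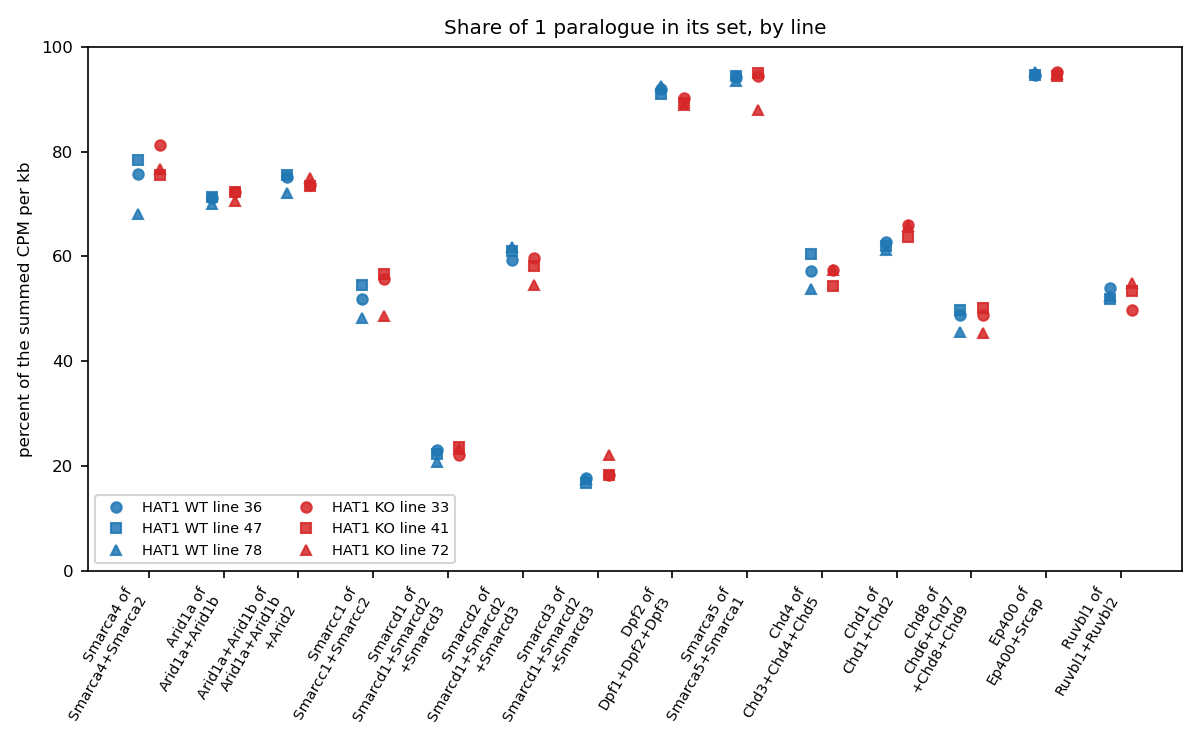
Share of a paralogue in the summed CPM per kb of its set, in percent, for 14 shares in the 6 lines (blue WT, red KO). Most shares overlap between the genotypes, and the 3 that do not are those of Smarcd3, Dpf2 and Chd1.

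The direction of the differences followed gene length among the members. The Spearman correlation between merged exon length and log2 fold change was -0.48 over the 47 members and -0.14 over the 14773 tested genes, which share the same 6 libraries and are not independent. It was -0.75 in SWI/SNF (18 genes), -0.73 in the INO80 group (9 genes) and -0.12 in CHD (9 genes), while it was 0.54, in the opposite direction, in the 6 ARID genes outside SWI/SNF. Of the 16 shortest members (1503 to 3356 bases), 11 were higher in KO, including Ruvbl1, Ruvbl2 and Smarcb1. Of the 16 longest (7437 to 13836 bases), 14 were lower, including Chd7, Chd6, Chd2, Arid1b, Arid4b and Arid5b. Of the 8685 tested genes with up to 3744 exon bases, 43.3% were lower. Of the 1341 with over 7391 bases, 63.2% were lower. Over all tested genes the median log2 fold change ran from 0.10 in the shortest to -0.07 in the longest of 10 equal groups by length.

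The length trend was also present between lines of the same genotype. Over all tested genes, the correlation of exon length with the deviation of log2 CPM from the mean of the 6 lines was 0.01, 0.04 and 0.18 in WT lines 36, 47 and 78 and -0.11, -0.06 and -0.08 in KO lines 33, 41 and 72. WT line 78 thus stood farther from the other WT lines than those did from each other. When the trend was removed in each library, an alternative chosen after seeing the data, 3 members remained lower at an unadjusted p-value under 0.05 in edgeR (Chd7, Arid5b and Arid4a). The 3 higher members (Ruvbl1, Ruvbl2 and Smarcb1) were the same, and the members' median log2 fold change was 0.0085. Of all tested genes, 7.99% were lower and 6.07% higher at that level in this setting, with a median log2 fold change of 0.019. Without WT line 78, Chd7 was the lower member left and Ruvbl1 the higher member left at that level. Whether the trend is a property of the RNA or of the libraries was not tested.

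**Figure D5:**
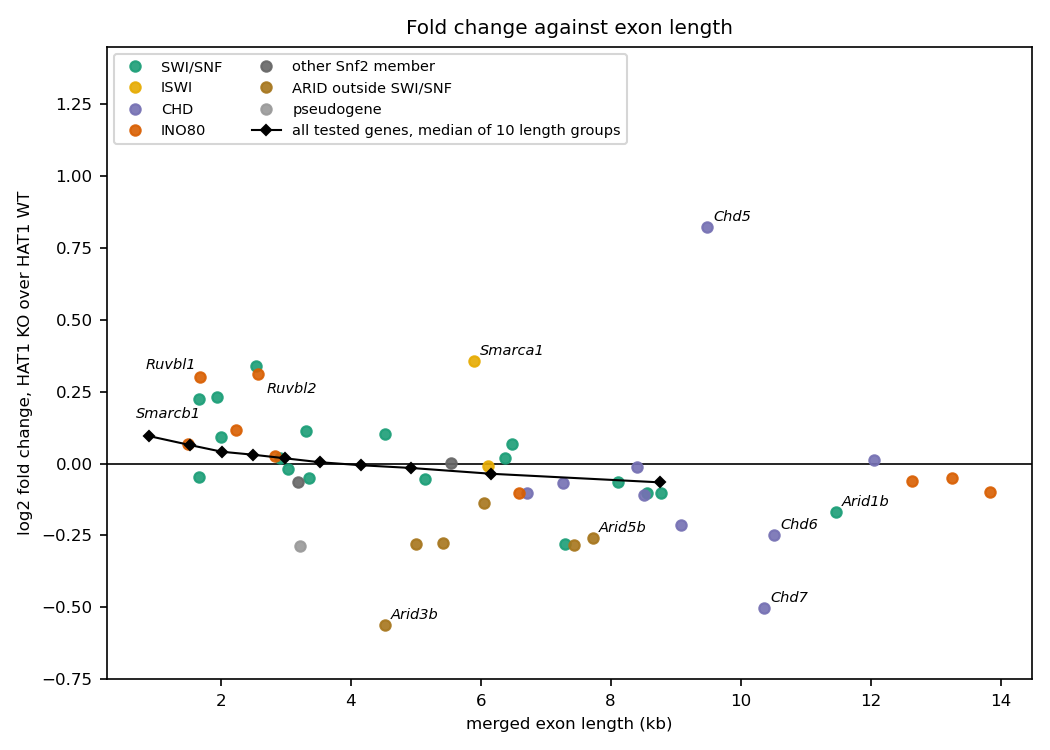
Log2 fold change of HAT1 KO over HAT1 WT against merged exon length in kb for the 47 tested members, coloured by family, with the medians of 10 equal groups of all tested genes by length as a black line. Most short members, such as Ruvbl1, lie above 0 and most long members, such as Chd7 and Chd6, lie below 0. The fall is steeper than that of the black line.

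Genes that the symbol rule leaves out were read from a list of 57 partner subunits of these enzymes and 13 other Snf2 ATPases, motors in their own right, of which 68 were tested. None passed adjustment in edgeR. Of the 68, 3 were lower at an unadjusted p-value under 0.05 (4.41%, against 8.77% of all tested genes) and 4 higher (5.88%, against 5.88%), and the median log2 fold change was 0.0014. Of the 55 partner subunits tested 2 were lower and 1 higher at that level, and of the 13 other ATPases 1 was lower and 3 higher. Zranb3, a fork-remodeling ATPase, was at 12.4, 14.2 and 11.7 CPM in WT and at 9.60, 9.59 and 6.88 CPM in KO, with a log2 fold change of -0.56 and an unadjusted p-value of 0.0130 in edgeR. Nfrkb, an INO80 subunit, and Baz2a, the partner of Smarca5 at silent ribosomal genes, were lower by log2 fold changes of -0.21 and -0.17, with unadjusted p-values of 0.0315 and 0.0498 in edgeR.

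The higher partner subunit was Pole3. Pole3, a histone-fold subunit shared by the CHRAC remodeler and a DNA polymerase, was at 19.0, 21.8 and 21.4 CPM in WT and at 24.4, 25.5 and 25.5 CPM in KO, with a log2 fold change of 0.28 and an unadjusted p-value of 0.0141 in edgeR. Among the other Snf2 ATPases, Ercc6l, a mitotic motor, had a log2 fold change of 0.71 (unadjusted p-value 0.0169 in edgeR), Rad54b, a recombination motor, 0.54 (0.0278) and Hells, a motor for DNA methylation of repeats, 0.44 (0.0411). Lines of these 4 genes did not overlap, among 11 higher genes of the 68 without overlap (16.2%, against 9.59% of all tested genes). Another 11 of the 68 were lower without overlap (16.2%, against 12.4%). Among the 10 NuRD partners 7 were higher and 3 lower (30.0%, against 48.5% of all tested genes). Their median log2 fold change was 0.11, with no unadjusted p-value under 0.05 in edgeR. With lane in the model none of the 68 genes had an unadjusted p-value under 0.05 in edgeR. Of all tested genes, 4.91% were lower and 1.39% higher at that level in this setting. Without KO line 72 there were 13 of the 68, beside 9.47% of all tested genes lower and 9.06% higher.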

How the data were processed

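The authors deposited 1 table of counts, the raw reads assigned to each gene in 6 libraries, without normalization. It also held the authors' own comparison (log2 fold change, log2 mean CPM, an F score, a p-value and a q-value), which was not used. Submitters' notes name mm10 and edgeR; aligner, counter, annotation and strand setting are not given in the sources used here. The TruSeq RNA kit (v2) named in the labels does not mark strand, so overlapping genes carry uncertain counts. All sample columns were mapped by line number and genotype, and 0 columns were left over.

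Counts were tested in edgeR 4.0.16 (R 4.3.3; filterByExpr, TMM, glmQLFit, glmQLFTest, genotype alone, two-sided), with Benjamini-Hochberg adjustment over 14773 genes and a threshold of 0.05. Intervals are 95% and standard errors are the log2 fold change divided by the root of F. The edgeR p-values set the difference between genotypes against the variation between 3 lines per genotype, with a variance estimate that also draws on the other tested genes. Exon lengths and positions are from GENCODE M21 (GRCm38, the mm10 assembly), promoter windows from RefSeq. The test was checked on simulated counts.

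Alternatives were DESeq2 1.42.0, its size factors, library-size scaling, 2 other filters, limma 3.58.1 voom, lane as a covariate, each line left out, and removal of the exon-length trend (added after seeing the data). Named are all motors, members with an unadjusted p-value under 0.05, members of paralogue sets whose shares did not overlap and up to 5 genes per direction of the partner list; others appear as ranges. The members and lists were chosen with earlier results of these data known. At 67720628 to 98786746 counts, spread between lines rather than counting sets the precision for all but the lowest genes.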

Additional observations from a re-analysis of the deposited data

How the results depend on the processing

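No paired analysis was possible because the labels give the genotypes no shared replicate numbers. Lane and genotype were unbalanced: lanes 6 and 7 held both genotypes, while WT line 36 was alone in lane 8, where line and lane cannot be told apart. Leaving out a line leaves 5 libraries, which can lower the number of genes that pass. Without KO line 72, however, 1424 genes were lower and 1362 higher at an unadjusted p-value under 0.05 in edgeR. With all lines these counts were 1295 and 869, and both fell with any other line left out. The cause of the shifts between settings was not tested. The DESeq2 Wald test called 1 member (Chd7) and 869 of all genes, where edgeR called 0 and 78. All genes called were 267 with voom, 46 without a filter, 2 with lane in the model and 0 to 73 with a line left out. Lower members at an unadjusted p-value under 0.05, 8 in the report, were 3 with lane, 3 with the length trend removed and 5 without a filter. They were 4 with voom and 1 to 5 with a line left out. The lowest count of lower members came without WT line 78, where Y-linked expression also followed genotype. Higher members, 3 in the report, were 1 with lane and 1 to 4 with a line left out. The lowest came without KO line 33, WT line 36 or WT line 78. The shares of all tested genes moved as well. Lower genes were 8.77% in the report, 4.91% with lane, 7.99% with the length trend removed and 7.16% without a filter. They were 10.2% with voom and 6.11% to 9.47% with a line left out. Higher genes were 5.88% in the report, 1.39% with lane and 3.02% to 9.06% with a line left out. The members' median log2 fold change was 0.0085 with the length trend removed, -0.012 with voom and -0.066 to -0.0013 with a line left out. Partners and other Snf2 ATPases under that level, 7 in the report, were 0 with lane and 2 to 13 with a line left out. The shares of all tested genes given above are the background for these counts. Shares without overlap were 3 to 5 with a line left out, where fewer lines overlap less easily.

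For 27 named members 378 alternative values were computed, of which 351 kept their direction and their side of the adjusted threshold of 0.05. No member passed that threshold in the main fit, so keeping its side was nearly fixed in advance and says little about stability. An unadjusted p-value under 0.05 held in 2 of the 14 alternatives for Arid3a, 6 for Chd2 and Chd6, and all 14 for Chd7 and Ruvbl1. The adjusted threshold was passed by 1 value (Chd7, -0.49 in the DESeq2 Wald test). The other 26 changed sign, all of them for members whose difference was near 0 or rested on KO line 72. Smarca4 was -0.026 with voom and -0.019 to 0.052 with a line left out. Smarca5 was 0.00090 with DESeq2 and with its size factors, 0.049 with the length trend removed, 0.010 without a filter, 0.017 with voom and -0.030 to 0.051 with a line left out. Chd1 was 0.069 with the length trend removed, 0.0051 without a filter, 0.0096 with voom and -0.037 to 0.045 with a line left out. With the length trend removed Chd3 was 0.0034, Ep400 0.044 and Srcap 0.052; with a line left out they ran from -0.13 to 0.0023, -0.11 to 0.019 and -0.14 to 0.037. Chd9 was -0.054 with lane and -0.086 to 0.23 with a line left out, Smarca1 ran from -0.13 to 0.58 and Chd5 from -0.24 to 1.24.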
